A study of Mus musculus with 6 samples.

Results

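The expression of 10 genes of the muscle contractile apparatus was followed in hindlimb buds of mouse embryos lacking Pitx1: the sarcomeric actins Acta1 and Actc1, the Z-disc proteins Actn2, Actn3, Csrp3 and Ldb3, the scaffold and filament proteins Des and Ttn, and the muscle-expressed genes Srpk3 and Mustn1. The members were every probe of the deposited value table whose platform gene symbol was one of these 10, which gave 17 of 25697 probes. The genes were chosen by their lower intensities in knockout than in wild type on these same arrays, so their fold changes and calls stand below as a description and not as a test. The 3 Pitx1 knockout samples (genotype PITX1-/-) and the 3 wild-type samples (PITX1+/+) were embryos of heterozygous intercrosses, strain SV129, taken at E12.5. Each sample was read on 1 Illumina bead array, in arbitrary intensity units that can lie below 0. The labels do not give the altered part of the Pitx1 allele or the number of embryos behind each RNA, so the errors given are between samples and may in part be technical.

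In striated muscle, thin filaments of actin slide past thick filaments of myosin, and the thin filaments of neighbouring sarcomeres are anchored at the Z-disc by alpha-actinin. Titin spans from the Z-disc to the middle of the sarcomere, and desmin filaments tie Z-discs to each other and to the cell membrane. In limb buds many sarcomeric genes are switched on as myoblasts, which migrate in from the somites, stop dividing and fuse into myotubes. Cardiac actin is the main sarcomeric actin of early skeletal muscle in the embryo and is later replaced by skeletal alpha-actin. Pitx1 is a homeodomain transcription factor of hindlimb mesenchyme, and the study asks what its loss does to the hindlimb.

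Across the whole table, 13720 probes lay above a background threshold of 14.3 units on at least 3 of the 6 arrays and were tested with limma. Of these, 30 were called at an adjusted p under 0.05 (Benjamini-Hochberg), 21 lower and 9 higher in knockout (0.219% in either direction). Pitx1 itself gave 78.3, 75.2 and 76.1 units in knockout replicates 1, 2 and 3 and 154, 125 and 140.2 units in wild type. Knockout replicate 3 stood apart on the first principal component (22.3, against -8.87 to 1.39 on the other 5 arrays), although its Pitx1 value lay between those of the other knockouts. Limb mesenchyme markers were present as the label asks: 10 of 11 with a probe were tested, Msx1, Twist1, Hoxd13 and Prrx1 among them. The cardiac list, which matters because Actc1, Csrp3 and Ttn also serve in heart, had 11 of its 13 markers below the threshold on all 6 arrays, including Nkx2-5, Myh6, Nppa, Myl7, Tnni3 and Gata4. The summed intensity of the cardiac list ran from -12.5 to 82.4 units in knockout and from 148 to 249 units in wild type. Sln, a calcium pump regulator that embryonic skeletal muscle also uses, gave 55.4, 41.4 and -0.57 of these units in knockout and 239, 148 and 135 in wild type.

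Of the 10 genes, 9 had a tested probe, and all 9 were above background on every wild-type array. On the knockout side 5 were above background on all 3 arrays and 4 (Acta1, Csrp3, Ttn and Srpk3) on 2 of them. The wild-type arrays alone were enough to pass the filter, but none of the 9 was below background on all knockout arrays. By the probe with the highest mean, all 9 had a log2 fold change below 0, as had 47.9% of all tested probes. Their median was -0.66, beside 0.01 over all tested probes. In 8 of the 9 every knockout array lay below every wild-type array, which held for 6.58% of all tested probes, while the opposite separation held for 6.63%. A log2 fold change below -0.5 was reached by 8 genes (0.503% of all tested probes) and one below -1 by 3 genes (0.109%). The limma call was met by 5 genes, Acta1, Actn2, Csrp3, Srpk3 and Mustn1, where 0.153% of all tested probes were called lower. Acta1 lost the call with a trended robust variance and with an offset of 16 or 100 in place of 50, Csrp3 and Srpk3 lost it with an offset of 100, and Mustn1 lost it with that offset and when a gene's probes were averaged. In whole limb buds, fewer muscle cells and less RNA per muscle cell cannot be told apart.

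**Figure D1:**
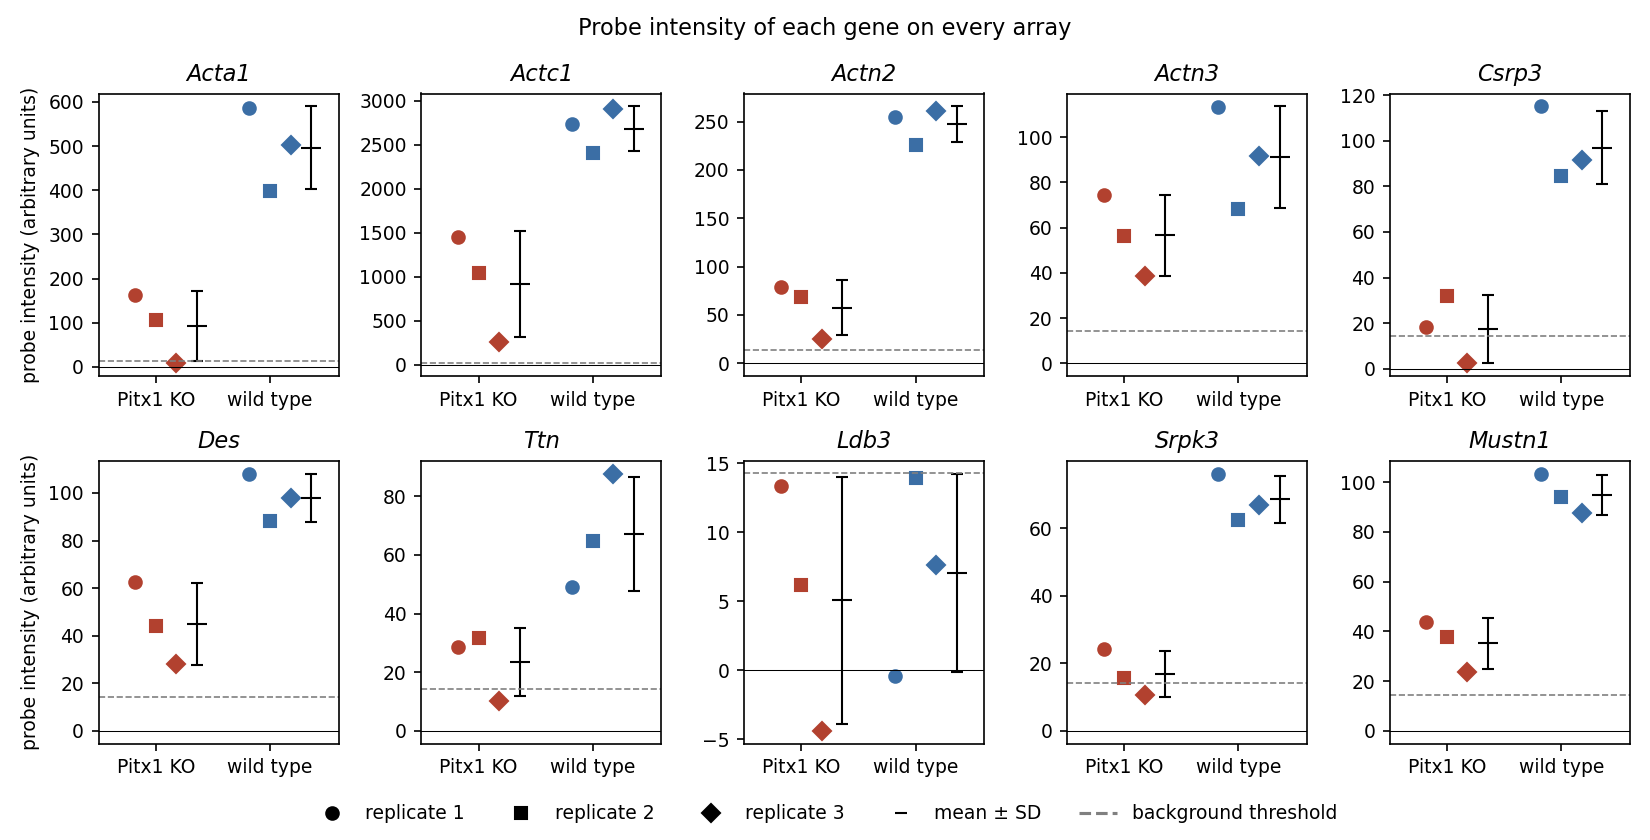
Probe intensity (arbitrary units, 1 scale per gene) on each knockout and wild-type array for the probe with the highest mean of each gene, with the group mean ± SD (n = 3) and the background threshold of 14.3 units. Knockout replicate 3 (diamond) was the lowest array for all 9 genes that were tested, and Ldb3 stayed under the threshold on all 6 arrays.

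**Figure D2:**
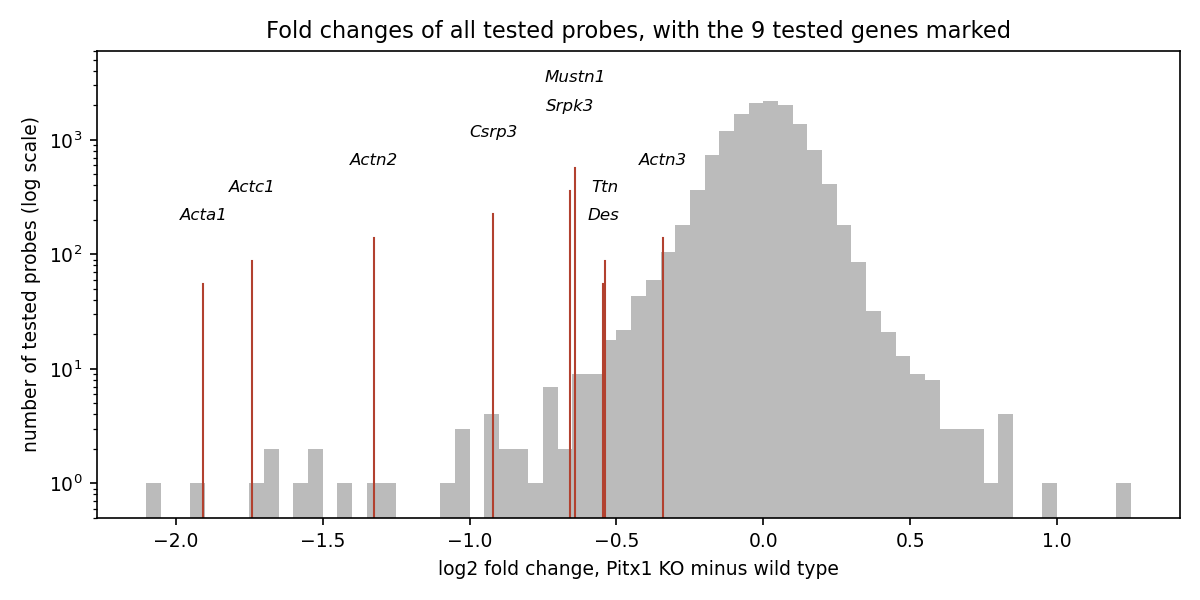
Number of tested probes (log axis) by log2 fold change, knockout minus wild type, for all 13720 probes, with lines at the 9 tested genes. Acta1, Actc1 and Actn2 lie in the far left tail, below -1, and Actn3 lies nearest to 0, at -0.34.

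Acta1, skeletal alpha-actin, gave 163, 106 and 7.95 units in knockout replicates 1 to 3, against 586, 399 and 503 units in wild type. The knockout mean was 18.7% of the wild-type mean, and the log2 fold change was -1.91 ± 0.28 (SE, n = 3 each). The genotypes did not overlap, and knockout replicate 3 lay below the background threshold. Actc1, cardiac alpha-actin, gave 1448, 1043 and 254 units in knockout, against 2729, 2406 and 2906 units in wild type, a log2 fold change of -1.74 ± 0.38 (SE). Here the knockout arrays were far apart from each other, at 54.0%, 38.9% and 9.48% of the wild-type mean, while the wild-type arrays lay close together. Actc1 was outside the call. Its log2 fold change was second to that of Acta1 with 50 units added, but its knockout mean, at 34.1% of wild type, was a larger share than those of Csrp3, Acta1, Actn2 and Srpk3. Without knockout replicate 3 the log2 fold changes were -1.46 for Acta1 and -1.08 for Actc1, and Actc1 was then called. The second Actc1 probe was below the threshold on all knockout arrays and above it on 2 wild-type arrays (20.9 and 17.6 units), so it was not tested. Cross-hybridisation between the probes of different actins was not tested.

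The bases before both actin starts are shown because each holds a CArG box, the binding motif of serum response factor (SRF), in capitals. They are the 250 bases before the annotated start from RefSeq, build GRCm38.p6, 5′ to 3′ in the direction of transcription, at chr8:123894776-123895025, minus strand (Acta1) and chr2:114052876-114053125, minus strand (Actc1).
Acta1: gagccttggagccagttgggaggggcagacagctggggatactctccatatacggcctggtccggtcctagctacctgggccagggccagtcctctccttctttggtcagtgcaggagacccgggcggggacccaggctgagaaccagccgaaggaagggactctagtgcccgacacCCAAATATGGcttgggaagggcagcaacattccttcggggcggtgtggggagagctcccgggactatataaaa
Actc1: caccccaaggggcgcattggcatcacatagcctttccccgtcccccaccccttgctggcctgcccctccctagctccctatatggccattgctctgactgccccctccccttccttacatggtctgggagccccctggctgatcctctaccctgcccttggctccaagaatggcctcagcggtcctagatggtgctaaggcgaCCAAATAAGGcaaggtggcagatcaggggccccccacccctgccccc
The match lies at positions -73 to -64 from the start of Acta1 and at -47 to -38 from that of Actc1. Over windows of 250 bases before to 50 after the start, both strands searched, a CArG box was found in 1.63% of 32851 promoters and in 3 of the 9 member genes with a promoter sequence, the third being Ldb3. Srf itself, by its brightest probe, averaged 687 ± 128 units in knockout and 749 ± 74.8 units in wild type (SD, n = 3 each; log2 fold change -0.12 ± 0.12 SE, limma adjusted p = 0.81). A dimmer Srf probe gave 48.4, 24.2 and 24.4 units in knockout and 13.5, 23.7 and 20.7 units in wild type. Its log2 fold change was 0.19 ± 0.11 (SE, limma adjusted p = 0.68).

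Among actins outside the sarcomere, Actb overlapped between genotypes, whereas Acta2 was lower in knockout, though outside the call. Actb, the beta-actin of all cells, had 5 tested probes. The brightest gave 39403, 35389 and 32630 units in knockout and 39403, 35389 and 39403 units in wild type, a log2 fold change of -0.09 ± 0.10 (SE, limma adjusted p = 0.83). The same values recur exactly on arrays of both genotypes, so this probe may be limited in the change it can show. The other tested Actb probes gave log2 fold changes of 0.04, 0.15, -0.16 and 0.20, all with overlap (limma adjusted p of 0.73 to 0.96). Acta2, smooth muscle alpha-actin, gave 5208, 3278 and 1524 units in knockout and 5830, 5563 and 5779 units in wild type (log2 fold change -0.93 ± 0.29 SE, limma adjusted p = 0.36). By this brightest Acta2 probe every knockout array lay below every wild-type array, with replicate 1 close to wild type and replicate 3 the lowest. Some dimmer Acta2 probes overlapped. The probe of Actg1, the other cytoplasmic actin, and that of Actg2, of smooth muscle, lay below background on all 6 arrays, so neither gene could be assessed.

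Alpha-actinin crosslinks actin at the Z-disc. Actn2, the form of all striated fibres and heart, gave 78.8, 68.5 and 25.0 units in knockout and 255, 226 and 261 units in wild type. Its log2 fold change was -1.32 ± 0.14 (SE, n = 3 each), with a knockout mean at 23.2% of wild type and no overlap. Actn3, the form of fast fibres, gave 74.5, 56.5 and 38.7 units in knockout and 113, 68.2 and 91.8 units in wild type by its brightest probe. Here the genotypes overlapped, since knockout replicate 1 exceeded wild-type replicate 2, and the log2 fold change was -0.34 ± 0.12 (SE). The other Actn3 probes gave -0.18 ± 0.10 and -0.08 ± 0.12 (SE), also with overlap, and the dimmer of them was above background on 1 knockout and 2 wild-type arrays. Actn3 was the single tested member without a separation of the genotypes. Of the alpha-actinins of other cells, Actn1 gave -0.20 ± 0.09 (SE, limma adjusted p = 0.62), and its genotypes did not overlap. Actn4 gave 0.00 ± 0.11 (SE, limma adjusted p = 0.998) with overlap.

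The stretch before the Actn2 start is shown because it holds TAATCC, the core sequence bound by Pitx-family homeodomains, in capitals (GRCm38.p6, chr13:12340733-12340982, minus strand, 250 bases before the start).
Actn2: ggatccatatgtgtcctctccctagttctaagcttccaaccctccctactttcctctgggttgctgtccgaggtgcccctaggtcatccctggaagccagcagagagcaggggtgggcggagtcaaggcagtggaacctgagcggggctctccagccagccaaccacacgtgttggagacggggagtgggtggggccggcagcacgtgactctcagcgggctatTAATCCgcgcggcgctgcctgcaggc
The match lies at positions -26 to -21, and TAATCC on either strand was found in 7.06% of all promoters and in no other member with a promoter sequence. No such sequence is given here for Actn3.

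Csrp3, the muscle LIM protein of the Z-disc, gave 18.3, 32.1 and 2.43 units in knockout and 115, 84.4 and 91.5 units in wild type. The log2 fold change was -0.92 ± 0.12 (SE, n = 3 each), and the knockout mean of 18.2% of wild type was the lowest of the 9 genes, with knockout replicate 3 below background. Because of the normexp correction and the 50 units added before the log2 step, the fold change of such a dim probe is understated. The percentages stand beside it for that reason. With 50 units added but no normexp, the Csrp3 log2 fold change was -1.14. A second Csrp3 probe gave 12.3, 16.9 and 17.2 units in knockout and 46.2, 16.5 and 41.3 units in wild type, a log2 fold change of -0.27 ± 0.11 (SE) with overlap, and the third was below background on all 6 arrays. The related LIM proteins Csrp1 and Csrp2, which are not confined to striated muscle, gave 0.10 ± 0.10 and 0.03 ± 0.09 (SE, limma adjusted p = 0.82 and 0.94).

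Ldb3, a PDZ and LIM domain protein that binds alpha-actinin, could not be assessed. Its 2 probes ran from -4.40 to 13.9 units over 12 values, all below the threshold of 14.3, so no fold change is given.

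Des, which encodes the muscle intermediate filament desmin, gave 62.8, 43.9 and 28.3 units in knockout and 108, 88.0 and 97.9 units in wild type. The log2 fold change was -0.55 ± 0.11 (SE, n = 3 each) and the knockout mean 45.9% of wild type, with no overlap. Vim and Nes, intermediate filaments of mesenchyme and of proliferating myoblasts and other progenitors, gave -0.21 ± 0.11 and -0.23 ± 0.12 (SE, limma adjusted p = 0.67 and 0.65), and their genotypes overlapped. Ttn, which encodes titin, gave 28.6, 31.7 and 10.1 units in knockout and 49.0, 64.7 and 87.7 units in wild type (log2 fold change -0.54 ± 0.12 SE). The Ttn genotypes did not overlap, but wild type itself was spread widely, and the lowest wild-type array was the one with the highest Acta1 value. Des and Ttn were outside the call.

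Srpk3, a muscle-specific protein kinase of splicing factors and a known MEF2 target in mouse, gave 24.2, 15.7 and 10.7 units in knockout and 76.1, 62.6 and 67.0 units in wild type. The log2 fold change was -0.66 ± 0.09 (SE, n = 3 each), with a knockout mean at 24.6% of wild type. Mustn1, a small nuclear protein of developing and regenerating muscle and skeleton, gave 43.8, 37.9 and 23.7 units in knockout and 103, 94.1 and 87.4 units in wild type (log2 fold change -0.64 ± 0.10 SE). Its second probe gave 26.3, 29.4 and 22.2 units in knockout and 40.0, 52.3 and 40.3 units in wild type (-0.24 ± 0.09 SE), again without overlap but outside the call. The 2 genes were among the dimmer members and yet among the 5 called, with wild-type arrays close together.

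Srpk3 and Ttn each hold a match to the MEF2 site in the bases before the start, in capitals, and are shown for comparison with the actins (GRCm38.p6, chrX:73774155-73774404, plus strand for Srpk3 and chr2:76982548-76982797, minus strand for Ttn).
Srpk3: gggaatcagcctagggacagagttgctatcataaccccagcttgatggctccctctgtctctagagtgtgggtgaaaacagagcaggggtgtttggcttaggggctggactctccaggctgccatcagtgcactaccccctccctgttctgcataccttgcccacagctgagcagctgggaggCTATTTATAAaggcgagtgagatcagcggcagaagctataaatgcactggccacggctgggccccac
Ttn: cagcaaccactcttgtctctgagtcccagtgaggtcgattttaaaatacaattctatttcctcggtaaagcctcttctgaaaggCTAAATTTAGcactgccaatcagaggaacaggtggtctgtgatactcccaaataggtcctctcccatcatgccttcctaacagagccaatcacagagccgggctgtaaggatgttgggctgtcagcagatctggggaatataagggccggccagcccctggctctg
The matches lie at -67 to -58 (Srpk3) and at -166 to -157 (Ttn). A MEF2 site was found in 3.19% of all promoters and in these 2 of the 9 member genes. CAGCTG, an E-box form bound by myogenic factors, was found in Acta1, Des and Srpk3 (16.3% of all promoters), any E-box CANNTG in 7 of the 9 (72.3%), and CATTCC, the M-CAT motif, in Acta1, Ttn and Mustn1 (14.7%). TATAAA was found in Acta1, Actc1 and Srpk3 (13.6% of all promoters), and in Srpk3 2 of its matches overlap the MEF2 site. Some matches lie after the annotated start, among them TATAAA of Actc1 (33 to 38) and CATTCC of Ttn (11 to 16) and Mustn1 (24 to 29). Every CAGCTG is also counted as an E-box.

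**Figure D3:**
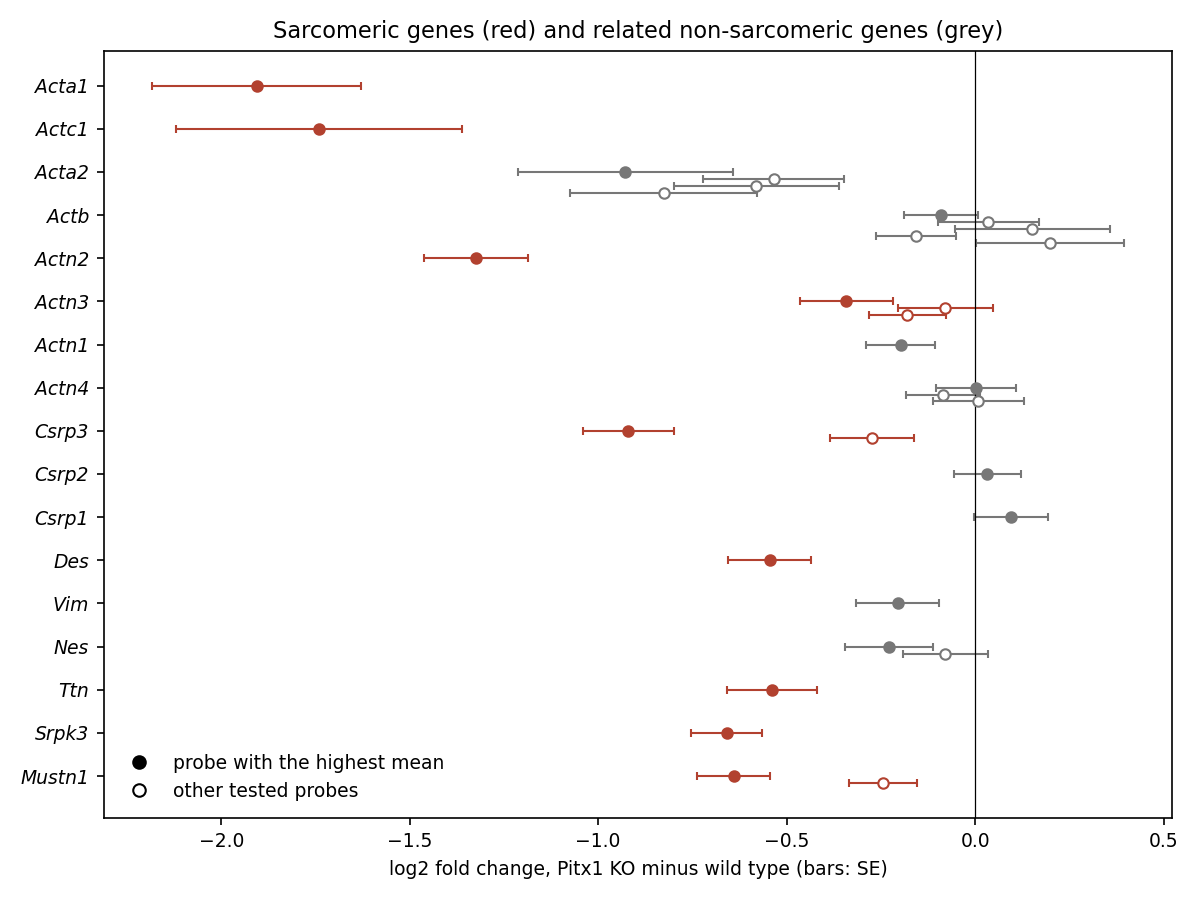
Log2 fold change, knockout minus wild type, with its SE (n = 3 each) for every tested probe of the sarcomeric genes (red) and of related genes used in other cells (grey). Acta1, Actc1 and Actn2 lie below -1, and among the grey genes the 4 Acta2 probes lie between -0.93 and -0.53, the brightest probes of Vim, Nes and Actn1 between -0.23 and -0.20, and those of Actb, Actn4, Csrp1 and Csrp2 within 0.10 of 0.

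The arrays ranked much alike from gene to gene. Knockout replicate 3 was the lowest of the 6 arrays for all 9 tested genes, and knockout replicate 1 was the highest knockout for 7 of them, with replicate 2 highest for Csrp3 and Ttn. Among wild-type arrays replicate 2 was the lowest for 7 of the 9. Relative to the wild-type mean, the median log2 level of the 9 genes was -0.54, -0.68 and -0.80 in knockout replicates 1 to 3 and 0.08, -0.10 and 0.02 in wild-type replicates 1 to 3. Without knockout replicate 3, the knockout means ran from 26.0% (Csrp3) to 71.9% (Actn3) of wild type, the median log2 fold change was -0.61, and 6 genes were called. Leaving out wild-type arrays changed the count more. Without wild-type replicate 1, 2 or 3, limma called 1, 2 and 0 of the 9 genes, with 8, 9 and 9 at an unadjusted p under 0.05, which 4.15% of all tested probes reached in the lower direction with all arrays and 3.9% in the higher.

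The other thin filament genes included the troponins and tropomyosins that gate myosin binding to actin. Of 23 listed, 17 had a probe and 13 were tested, of which 3 fell, 0 rose and 10 did not pass by limma (7 lower and 1 higher at an unadjusted p under 0.05), with a median log2 fold change of -0.41. Tnnt1, slow troponin T, gave 1452, 1156 and 759 units in knockout and 2395, 2323 and 2078 units in wild type (log2 fold change -1.01 ± 0.17 SE, limma adjusted p = 0.023). Tnnc1 and Tnnc2, troponin C of slow and fast fibres, gave log2 fold changes of -1.68 ± 0.29 and -1.53 ± 0.26 (SE, limma adjusted p = 0.031 and 0.026). Tpm2, a tropomyosin, gave -1.45 ± 0.27 (SE) and just missed the call (limma adjusted p = 0.051), and its other tested probe gave -0.44. Tmod1, which caps the pointed end of the thin filament, was the single gene of the list with a log2 fold change above 0 (0.27 ± 0.10 SE, limma adjusted p = 0.47). Tpm1, Tpm3 and Capzb, which many cell types use, gave values between -0.23 and -0.01 and did not pass. Tmod4 and Cfl2, which are expressed in skeletal muscle, gave -0.03 ± 0.09 and -0.09 ± 0.09 (SE, limma adjusted p = 0.94 and 0.82), both with overlap. Without any 1 wild-type array no gene of this list was called, and without knockout replicate 1 the count was 6.

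Of 41 other Z-disc and scaffold genes listed, 35 had a probe and 21 were tested, and 0 passed by limma, with 3 lower and 0 higher at an unadjusted p under 0.05. The median log2 fold change was -0.11. The 3 were Cryab, a small heat shock protein that binds desmin (40.8 ± 14.4 units in knockout and 95.3 ± 18.6 in wild type, SD, n = 3 each; log2 fold change -0.57 ± 0.11 SE, limma adjusted p = 0.076), Tcap, the titin cap protein (-0.25 ± 0.12 SE, adjusted p = 0.62), and Mybpc1, slow myosin binding protein C. Mybpc1 was above background on all 3 wild-type arrays and on 0 knockout arrays, so it passed the filter through wild type alone. Its other probes were below background on all 6 arrays. Probes of Myoz1, Myoz2, Ankrd2, Myom2, Cav3 and Jph1, genes of mature muscle, were below background on all 6 arrays. Pdlim3, Pdlim7, Fhl1, Csrp1 and Csrp2, which were bright in both genotypes, lay between -0.18 and 0.11 on the log2 scale and did not pass. Xirp1, Trim63, Myom1, Synpo2l and Sgca, genes of striated muscle, lay between -0.11 and 0.09, all with overlap. Myot and Trim54, above background on 1 and 0 knockout arrays, gave -0.15 and -0.16 with no overlap. Pdlim5, a partner of alpha-actinin, gave -0.17 ± 0.09 (SE, limma adjusted p = 0.66).

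Myogenic regulators gave no call by limma among 11 tested, with 4 lower and 0 higher at an unadjusted p under 0.05. Myog, which drives the step to differentiated myocytes, gave 114, 95.0 and 48.6 units in knockout and 194, 141 and 172 units in wild type (log2 fold change -0.63 ± 0.14 SE, limma adjusted p = 0.12). By this probe knockout replicate 3 was again the lowest array, and a dimmer tested Myog probe gave -0.22 ± 0.10 (SE, limma adjusted p = 0.60). Msc, which encodes musculin of muscle precursors, gave 699, 690.1 and 303 units in knockout and 1093, 1078 and 976 units in wild type (-0.89 ± 0.21 SE, adjusted p = 0.14). Mef2c, a cofactor of myogenic factors, gave -0.52 ± 0.15 and Mymk, the fusion protein myomaker, gave -0.22 ± 0.10 (SE, limma adjusted p = 0.32 and 0.61). A dimmer tested Mef2c probe gave -0.11 ± 0.11 (SE, limma adjusted p = 0.80) with overlap. Of the 11 tested, 9 had a log2 fold change below 0, whereas Smyd1 gave 0.17 ± 0.11 (SE, limma adjusted p = 0.72) with overlap. The probes of Pax3, Pax7, Myf5 and Myf6 were below background on all 6 arrays, so muscle progenitors could not be read from them.

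Of the cytoskeletal genes of non-muscle and smooth muscle cells, 13 were tested and 0 passed by limma, with 3 lower and 0 higher at an unadjusted p under 0.05 (Acta2, Actn1 and Zyx, a focal adhesion protein). Some markers of other tissues also differed between the genotypes. The median log2 level of the cartilage markers was -0.10, -0.07 and -0.39 in knockout replicates 1 to 3. In wild type it was -0.08, -0.12 and 0.21, so only knockout replicate 3 lay below all wild-type arrays. The tendon and connective tissue medians were -0.04, -0.16 and -0.32 in knockout and 0.11, -0.07 and 0.01 in wild type. Of 10 cartilage markers tested 1 fell (Matn4, a matrilin of cartilage matrix, -1.58 on the log2 scale) and 3 were lower at an unadjusted p under 0.05, and their summed intensity was 3154 to 5415 units in knockout and 4972 to 7322 units in wild type, with Sox6, Col9a3, Matn3, Hapln1 and Cnmd below background on all arrays. Of 13 tendon and connective tissue markers tested 1 fell (Tnc, tenascin C, -0.74) and 3 were lower at an unadjusted p under 0.05, with sums of 6753 to 7921 units in knockout and 8103 to 8782 units in wild type, and Tnmd below background on all arrays. Of 12 erythroid markers tested 1 rose (Nfe2, an erythroid transcription factor, 0.63; 0.0656% of all tested probes were called higher). At an unadjusted p under 0.05, 8 of the 12 were higher, and for 7 every knockout array lay above every wild-type array. The erythroid sums were 197900 to 211400 units in knockout and 181000 to 192900 units in wild type. The part of these shifts, or of the distance of knockout replicate 3, in the lower sarcomeric values was not tested.

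**Figure D4:**
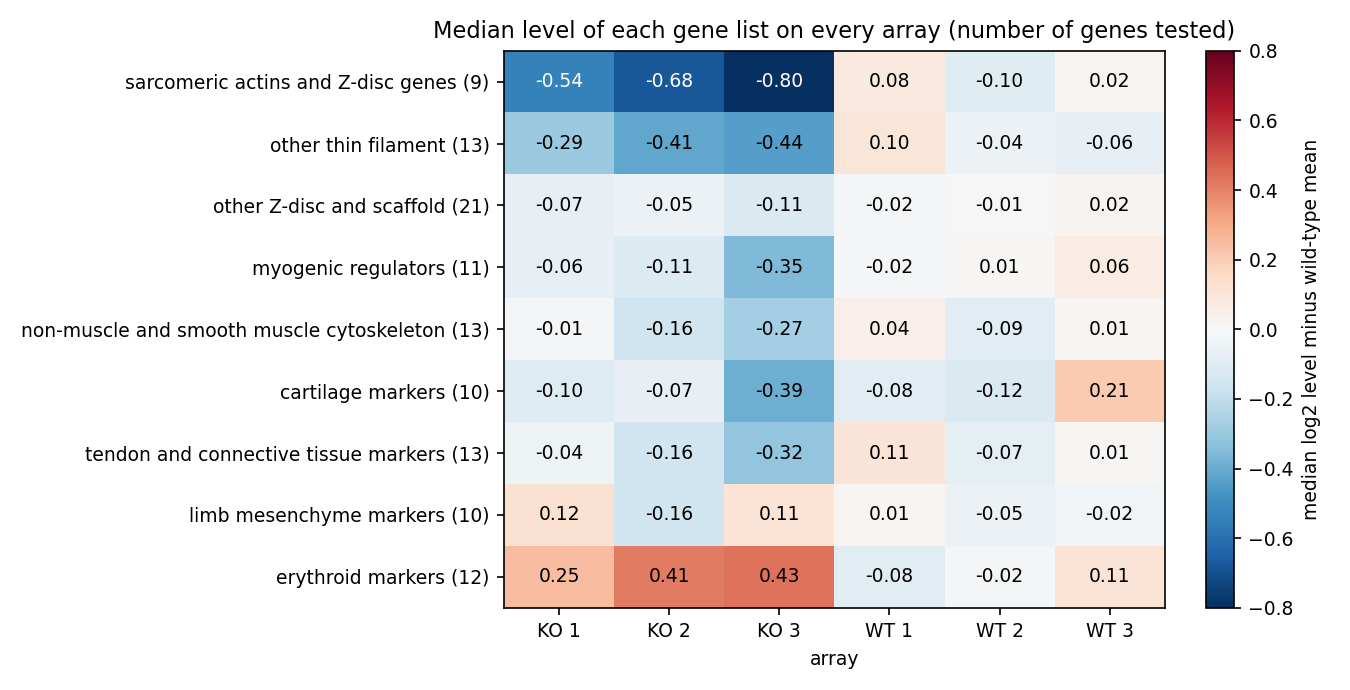
Median log2 level minus the wild-type mean for each gene list (rows, with the number of genes tested) on each array (columns). The sarcomeric actins and Z-disc genes lie between -0.54 and -0.80 in the 3 knockout arrays, and the erythroid markers lie between 0.25 and 0.43 there.

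Genes whose course over the 6 arrays was most like that of the leading members were sought among the 9530 other tested genes, by the root mean square difference in log2 level relative to the wild-type mean. For Acta1 the 5 nearest were Myl4, an embryonic myosin light chain (0.156), Tnnc1 (0.198), Myl1 (0.234), Tnnc2 (0.288) and Mylpf (0.314), the last a regulatory light chain of fast fibres. For Actn2 they were Sln (0.193), Chrng, the fetal acetylcholine receptor subunit (0.224), Myh8, a perinatal myosin heavy chain (0.23), Tnnt1 (0.252) and Rprm, a cell cycle arrest gene (0.274). Since the measure includes the difference between genotypes, it ranks genes of similar fold change first.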

How the data were processed

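Hindlimb bud RNA of 3 Pitx1 knockout and 3 wild-type samples was hybridised to Illumina bead arrays after labelling with an Ambion kit, per the labels' protocols. The deposited values are linear probe intensities. Of them 27.9% lie below 0, and the columns have almost the same distribution (medians of 17.8 units), as background subtraction and quantile normalization would leave them. Scanner software and both steps are not given in the sources used here. Such normalization would hide a global change. A second table was not used: its 12 value columns (6 of signals, 6 of detection p-values) are headed by numbers that could not be tied to any sample's labels.

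Intensities were corrected with normexp (offset 50) and converted to log2. Background was taken from the values below 0 (root mean square 8.71, threshold 1.64 times that). The 13720 probes that exceeded this on 3 or more arrays were tested with limma 3.58.1 (R 4.3.3), genotype as the only term, two-sided, Benjamini-Hochberg over all tested probes. The fit was tested on simulated data. Symbols came from the platform annotation, updated through Entrez identifiers (23962 of 25697 probes matched; 23978 have 1 symbol, 0 several, 1719 none). The probe with the highest mean stood for a gene. With 3 against 3, the smallest exact permutation p is 0.1, so none was run. The number of arrays limits the precision.

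The members and all gene lists were chosen with earlier results of these data known. Named were the members, 13 genes fixed by name (of which Tnnt2 had no probe) and the 5 nearest patterns of Acta1 and of Actn2. The plan set up to 4 genes of lowest p for every list. They are named for the thin filament, Z-disc, myogenic and cytoskeletal lists, but only the called gene is named for the cartilage, tendon and erythroid lists. Tmod1, Tmod4, Cfl2, Csrp1, Csrp2, Myot, Trim54, Smyd1 and the genes given only as present, below background or as ranges were chosen after their values were seen. The lists of endothelial (0 of 9 tested called), macrophage (0 of 6), Schwann cell and neuron (0 of 2), ectoderm (0 of 8) and limb mesenchyme markers (0 of 10) gave no limma call, with 0, 1, 0, 0 and 3 genes at an unadjusted p under 0.05. Promoters came from RefSeq (GRCm38.p6), matched by symbol for 9 of the 10 members. A planned comparison of protein sequences was not run, as none were used here. Figures were drawn with matplotlib 3.10.9.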

Additional observations from a re-analysis of the deposited data

How the results depend on the processing

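The count of called probes was 30, and it moved to 8 with an offset of 16, to 4 with an offset of 100 and to 84 with the replicate block. The count of members called (5) moved to 1 with an offset of 100 (Actn2), and to 4 with an offset of 16 or a trended robust variance (both without Acta1) and with the mean over a gene's probes (without Mustn1). That mean moved Csrp3 to -0.60 and Mustn1 to -0.44. The members' median log2 fold change (-0.66) moved to -0.96 with an offset of 16 and to -0.47 with one of 100, since the offset helps set how far dim probes are compressed. With 50 units added but no normexp, the median was -0.83, and Csrp3, Srpk3 and Mustn1 gave -1.14, -0.83 and -0.77. The count of other thin filament genes that fell (3) moved to 0 with either offset, 6 with the block, 1 with a trended robust variance and 5 with array weights. Other Z-disc and scaffold genes (0) moved to 1 with the block and to 1 with the trended robust variance, and myogenic regulators (0) to 2 with the block. With 1 array left out, ranges were 0 to 91 for all probes, 0 to 7 for members, -0.72 to -0.61 for their median, 0 to 6 for thin filament genes, 0 to 1 for Z-disc genes, 0 to 1 for cytoskeletal genes and 0 to 2 for myogenic regulators. The lowest count of probes, 0, came without wild-type replicate 3 by limma, with 710 at an unadjusted p under 0.05, and the highest, 91, without knockout replicate 1. The cause of these changes was not tested. No result reversed under the alternatives run. Renormalization, median centring, both filters and the data without normexp kept each of these counts within 1.5 times.

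The replicate numbers have no stated meaning, and the deviations of same-numbered arrays correlated at 0.23, 0.17 and -0.07, with 4 of 6 arrays closest to their own number, so the numbers were not taken to pair the samples. The block called 7 members.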

Other observations

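Acta2, smooth muscle alpha-actin, which early skeletal myotubes also express, differed widely among the knockout arrays (3337 ± 1843 units in knockout and 5724 ± 141 units in wild type, SD, n = 3 each). All 4 tested Acta2 probes were lowest in knockout replicate 3, with log2 fold changes of -0.93 to -0.53, and 0 were called by limma (adjusted p of 0.34 to 0.51; unadjusted p under 0.05 in all 4). In knockout replicate 1, the brightest probe gave 5208 units (5563 to 5830 in wild type) and another gave 594 (638 to 666), both below all wild-type arrays. The remaining probes gave 370 units (355 to 463 in wild type) and 512 units (486 to 512), not below them. Acta1 in the same array was at 33.0% of the wild-type mean.

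Myod1, a myogenic factor of committed myoblasts, gave 63.8, 39.6 and 10.8 units in knockout replicates 1 to 3 and 41.8, 39.8 and 46.4 units in wild type (log2 fold change -0.09 ± 0.14 SE, limma adjusted p = 0.89). Knockout replicate 1 lay above all wild-type arrays and replicate 3 below background, whereas all 3 knockout arrays lay below wild type for Acta1, Actc1, Actn2 and Myog.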
